A study of Mus musculus with 6 samples.

Results

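The genes analysed here are those of antigen presentation by the major histocompatibility complex (MHC), a set of 10 named genes with H2-K1, H2-D1, B2m, Tap1 and Nlrc5 for class I and H2-Aa, H2-Ab1, H2-Eb1, Cd74 and Ciita for class II. All 10 had a row among the 21017 genes of the deposited count table, and all 10 were among the 16654 genes left by the filter on low counts. The sequenced cells were ILC2s (group 2 innate lymphoid cells), lung lymphocytes without rearranged antigen receptors that secrete type 2 cytokines. The IL-10-producing group and the IL-10-negative group had 3 libraries each. Both came from 8-week-old mice of the C57BL/6J background with the IL-10GFP reporter genotype, in which green fluorescence marks cells that transcribe Il10. All mice had received 3 intranasal administrations of IL-33 at 0.5 µg per mouse, and the sorted cells were cultured before the second sort that made the groups. The culture lasted 48 h and contained the cytokines IL-4, IL-7 and IL-2, every one of them at 10 ng/mL. The labels differ on this point, since their cell type field calls the cells fresh from the sort, while the treatment protocol describes the culture and second sort. The comparison therefore asks how IL-10-producing ILC2s differ from IL-10-negative ILC2s of the same treatment, and unstimulated cells were not analysed here. The labels do not say how many mice stood behind a library or whether replicates were separate cultures, so the p-values below reflect spread among these libraries alone, which may be technical.

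MHC class I molecules show peptides from inside the cell to CD8 T cells. Each consists of a heavy chain, such as the products of H2-K1 and H2-D1, with the light chain beta-2-microglobulin, encoded by B2m. The transporter made of TAP1 and TAP2 carries the peptides into the endoplasmic reticulum, and the factor NLRC5 drives transcription of these genes. MHC class II molecules show peptides from endosomes to CD4 T cells. They pair an alpha with a beta chain, are escorted by the invariant chain encoded by Cd74, and are switched on by the master regulator CIITA. Class II is typical of B cells, dendritic cells and macrophages, and mouse ILC2s are known to express it at a lower level and to present antigen to CD4 T cells.

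Library totals ran from 47012941 to 69511433 counts. Il10, whose reporter was the basis of the sort, averaged 848 ± 7.78 CPM across IL-10-producing and 13.5 ± 0.608 CPM across IL-10-negative libraries (SD, n = 3 each, as for all later ± values), which checks the labels and is no finding. All 14 ILC2 markers were detected, with Il2ra, Il1rl1 and Il5 the highest, and 7 fell, 4 rose and 3 did not pass (median log2 fold change -0.12). Over all tested genes 18.6% fell and 17.1% rose, by the test defined in the next paragraph, which also holds for the lists below. Il2ra averaged 5835 ± 47.4 CPM across IL-10-producing and 4206 ± 38.7 CPM across IL-10-negative libraries and was the largest part of their sum, which was 16272 to 16429.9 CPM in IL-10-producing, against 15767 to 15924 CPM in IL-10-negative libraries. The 13 T-cell markers summed to 75.9 to 78.7 CPM in IL-10-producing against 153 to 159 CPM in IL-10-negative libraries, and all 13 fell (median log2 fold change -2.67). Trbc2, the largest part of this sum, averaged 48.2 ± 0.711 CPM in IL-10-producing against 58.4 ± 0.653 CPM in IL-10-negative libraries. All 9 mast-cell and basophil markers fell too, with sums of 12.1 to 14 CPM in IL-10-producing against 68.3 to 73.3 CPM in IL-10-negative libraries, as did 3 of 4 tested neutrophil markers. Of 5 tested NK-cell and ILC1 markers 3 fell and 2 rose, both epithelial markers tested fell, and Pecam1, the tested endothelial marker, rose. Cd8a, Cd8b1, Mcpt4, Tpsb2, Prss34, Elane, Klrb1c, Eomes and Tbx21 passed the filter only through the IL-10-negative group. Their falls carry no weight. These genes had 0 to 14 counts per IL-10-producing library and are named here after their values were seen. The part of the cell types of these lists in the results below was not tested.

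Of the 10 genes 8 fell and 0 rose in IL-10-producing ILC2s, where 18.6% of all tested genes fell. The chains of the class I molecule were lower in IL-10-producing ILC2s, whereas Tap1 and Nlrc5 did not pass the test. H2-K1 fell by 17.1%, B2m by 14% and H2-D1 by 12.8%. In bulk RNA, fewer cells that express a gene and less RNA per cell cannot be told apart. Levels below are in CPM, each library's counts relative to its total, scaled with edgeR's TMM factors, and a negative log2 fold change means a lower level in the IL-10-producing group. A gene is said to rise or fall where its Benjamini-Hochberg adjusted p in edgeR's quasi-likelihood test over all tested genes was under 0.05. By that rule 35.7% of all genes changed, 18.6% lower and 17.1% higher, so a small change was often called at this depth. The median absolute log2 fold change of all tested genes was 0.14, and that of the called genes was 0.224.

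H2-K1 (ENSMUSG00000061232.15, chromosome 17, 33996017 to 34000333 of build mm10, minus strand), which encodes the K heavy chain, had 1357, 1367 and 1340.2 CPM in the IL-10-producing libraries, against 1637, 1622 and 1643 CPM in the IL-10-negative libraries. The groups lay far apart, and each was tight. Its log2 fold change was -0.27 (95% confidence interval -0.30 to -0.24, adjusted p = 6.73e-13). H2-D1 (ENSMUSG00000073411.11, chromosome 17, 35262730 to 35267499), the D heavy chain, had 1986, 1996 and 1966 CPM in IL-10-producing libraries, against 2285, 2250.2 and 2288 CPM in IL-10-negative libraries. All 3 IL-10-producing values were below the lowest IL-10-negative value. The log2 fold change was -0.20 (interval -0.23 to -0.17, adjusted p = 1.27e-10). B2m (ENSMUSG00000060802.8, chromosome 2, 122147686 to 122153083), the light chain shared by all class I molecules, had 1625, 1583 and 1604 CPM in IL-10-producing libraries, against 1871, 1859.9 and 1866 CPM in IL-10-negative libraries. It lies on another chromosome than the heavy chains and changed by a similar amount, with a log2 fold change of -0.22 (interval -0.25 to -0.19, adjusted p = 3.46e-11). The size of these falls was modest. None of the 3 was past the threshold in a test against a change of 1.2-fold, with adjusted p from 0.786 to 1.

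The balance between the heavy chains and B2m did not differ beyond the spread between libraries. Per kilobase of transcript, the summed level of H2-K1 and H2-D1 over that of B2m was 0.944, 0.975 and 0.945 in IL-10-producing libraries and 0.965, 0.958 and 0.969 in IL-10-negative libraries. The groups overlapped, and a two-sided exact permutation test over the 6 libraries gave p = 0.4, where 0.1 is the smallest p that 3 against 3 libraries allow. Between the heavy chains, H2-K1 over H2-D1 was 0.887, 0.889 and 0.885 in IL-10-producing libraries, against 0.930, 0.936 and 0.932 in IL-10-negative libraries. The ratio was lower in all 3 IL-10-producing libraries (exact permutation p = 0.1, the smallest possible). Of the 6 deposited values, 5 of H2-K1 and 1 of H2-D1 were not whole numbers. Near-identical class I genes can share reads, so values of single heavy chain genes are uncertain to the extent that the authors' counting divided such reads.

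**Figure D1:**
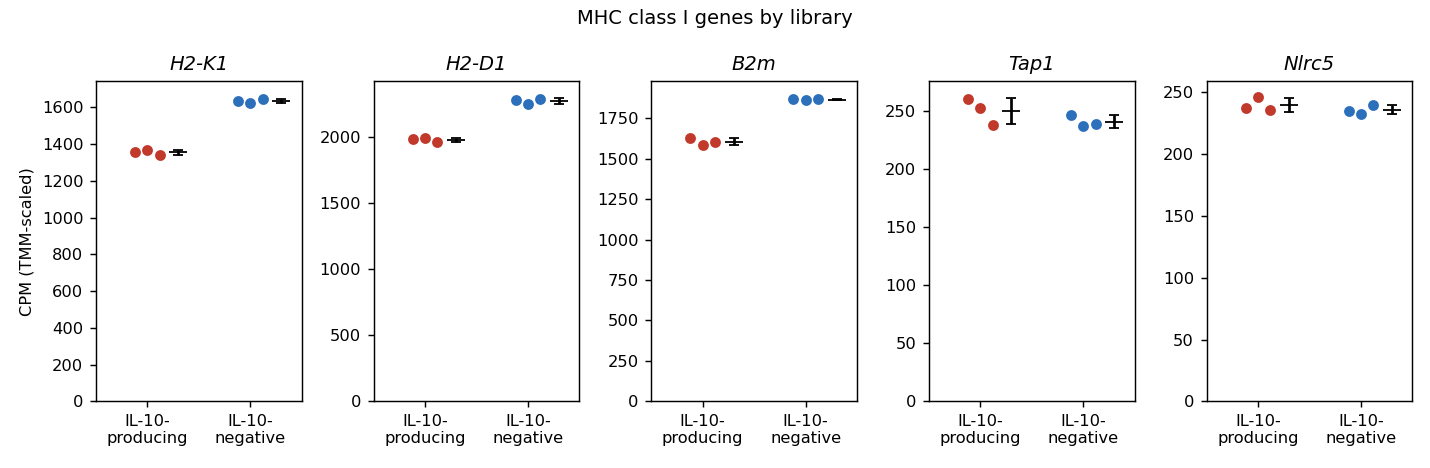
Levels of the class I genes in CPM (TMM-scaled, axis from 0) in the IL-10-producing and IL-10-negative libraries, with a point per library and the mean ± SD of 3 libraries in black. H2-K1, H2-D1 and B2m lie lower in all 3 IL-10-producing libraries, and Tap1 and Nlrc5 overlap between the groups.

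Tap1 (ENSMUSG00000037321.17, chromosome 17, 34187553 to 34197225), a subunit of the peptide transporter, had 260.3, 253 and 238 CPM in IL-10-producing libraries, against 247, 237 and 239 CPM in IL-10-negative libraries. The groups overlapped, and its log2 fold change was 0.06 (interval 0.00 to 0.11, adjusted p = 0.0971). Without IL-10-producing replicate 3, the lowest of its group, Tap1 passed as higher (log2 fold change 0.09, adjusted p = 0.00205). Tap1 overlaps Psmb9 on the opposite strand, and the strand setting of the counting is not given in the sources used here. Nlrc5 (ENSMUSG00000074151.13, chromosome 8, 94434356 to 94527272), the class I transactivator, had 237, 246 and 236 CPM in IL-10-producing libraries, against 235, 232 and 239.7 CPM in IL-10-negative libraries. The values were interleaved, with a log2 fold change of 0.02 (interval -0.02 to 0.07, adjusted p = 0.439), which became -0.01 when only library size was used for scaling. The interval for Nlrc5 did not reach the falls measured for H2-K1, H2-D1 and B2m.

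RefSeq promoter windows of GRCm38.p6, from 250 bases before to 50 bases after a gene's start, are shown for 6 of the 10 genes because MHC promoters of both classes carry a known module of X and Y boxes that the CIITA and NLRC5 complexes use. Capitals mark, on either strand, ATTGG (the CCAAT box, the core of the Y box), GCAAC (a core of the X box that RFX factors bind) and TGACG (a core of cyclic AMP response elements). The H2-K1 window was chr17:34000298-34000597 (minus strand), the H2-D1 window chr17:35262844-35263143 (plus strand), the B2m window chr2:122147437-122147736 (plus strand) and the Tap1 window chr17:34187306-34187605 (plus strand).
H2-K1: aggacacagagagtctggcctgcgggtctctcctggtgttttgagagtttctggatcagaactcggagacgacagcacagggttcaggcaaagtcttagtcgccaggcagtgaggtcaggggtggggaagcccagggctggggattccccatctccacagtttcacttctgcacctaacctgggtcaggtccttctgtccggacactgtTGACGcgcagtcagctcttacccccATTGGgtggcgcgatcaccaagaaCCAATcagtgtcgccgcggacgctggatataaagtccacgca
H2-D1: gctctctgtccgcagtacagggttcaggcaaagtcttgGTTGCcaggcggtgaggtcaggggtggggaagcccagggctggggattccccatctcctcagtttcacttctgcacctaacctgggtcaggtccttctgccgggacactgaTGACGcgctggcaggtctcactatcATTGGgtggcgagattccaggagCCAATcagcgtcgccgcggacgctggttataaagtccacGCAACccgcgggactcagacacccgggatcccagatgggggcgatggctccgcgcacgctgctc
B2m: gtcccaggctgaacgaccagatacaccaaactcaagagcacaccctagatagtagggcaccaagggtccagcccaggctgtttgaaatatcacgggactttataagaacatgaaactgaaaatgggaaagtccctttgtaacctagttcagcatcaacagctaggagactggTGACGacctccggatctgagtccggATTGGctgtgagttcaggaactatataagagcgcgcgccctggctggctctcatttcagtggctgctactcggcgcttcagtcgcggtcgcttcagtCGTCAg
Tap1: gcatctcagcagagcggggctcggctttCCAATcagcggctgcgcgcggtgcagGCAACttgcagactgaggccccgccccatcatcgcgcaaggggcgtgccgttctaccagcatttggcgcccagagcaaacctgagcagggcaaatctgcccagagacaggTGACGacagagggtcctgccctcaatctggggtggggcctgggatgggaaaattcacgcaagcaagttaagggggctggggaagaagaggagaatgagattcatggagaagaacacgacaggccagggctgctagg
In H2-K1, H2-D1 and B2m, TGACG was followed on the sense strand by ATTGG, with 25 bases between the starts of the matches in all 3. In Tap1 the only ATTGG lay on the opposite strand and upstream of GCAAC and TGACG. A pair of TGACG or GCAAC with an ATTGG that starts within 50 bases downstream on the sense strand occurred in 1.53% of the 32851 RefSeq windows, whereas ATTGG alone occurred in 37.4%, GCAAC in 35.2% and TGACG in 20.8% on either strand. The pair was defined after these windows had been read, and whether it goes with a fall was not tested. Of the interferon-responsive motifs searched on both strands, GAAA with a second GAAA after any 2 bases had a match in the B2m window and in 3.44% of all windows, and TTCNNNGAA had none in the 6 windows of these genes, against 8.30% of all windows. These matches describe letters and show no binding. The search took exact letters only and misses variant forms of a motif, so a window without a match may still hold such an element.

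Most other genes of the class I pathway did not pass the test. Among 12 genes of peptide supply and loading 2 rose, 3 fell and 7 did not pass, with a median log2 fold change of -0.03. These shares are near the 17.1% of all genes that rose and the 18.6% that fell. The lectin chaperones of the endoplasmic reticulum, which fold many glycoproteins besides class I, were the members that rose. Calr (calreticulin) averaged 1197 ± 27.3 CPM in IL-10-producing, against 1074 ± 9.87 CPM in IL-10-negative libraries (log2 fold change 0.16), and Canx (calnexin) averaged 896 ± 12.3 CPM in IL-10-producing against 817 ± 12 CPM in IL-10-negative libraries (0.13). Pdia3, a thiol oxidoreductase of the loading complex, fell to 849 ± 7.45 CPM in IL-10-producing, against 899 ± 9.5 CPM in IL-10-negative libraries, and Tapbp (tapasin), which bridges the transporter and the heavy chain, to 270.3 ± 9 CPM in IL-10-producing against 282 ± 3.23 CPM in IL-10-negative libraries. The Tapbp call was lost in 4 of 6 fits with 1 library left out (adjusted p = 0.0518 and 0.269 when IL-10-producing replicate 2 or 3 was left out, and 0.0859 and 0.145 when IL-10-negative replicate 2 or 3 was). Psmb10, an immunoproteasome subunit, fell to 35.8 ± 0.955 CPM in IL-10-producing against 39.7 ± 2.01 CPM in IL-10-negative libraries. The other immunoproteasome subunits did not pass, with log2 fold changes of -0.03 for Psmb8 (interval -0.08 to 0.01) and 0.00 for Psmb9 (-0.08 to 0.07). Nor did Tap2, the partner of Tap1 (-0.01, interval -0.06 to 0.05), the peptide-trimming enzyme Erap1 (-0.03, interval -0.08 to 0.02) or the proteasome activator genes Psme1 and Psme2 (-0.03 and -0.10). Tapbpl, a tapasin relative that edits peptides, missed the threshold too (-0.11, adjusted p = 0.0851). With library size only as the scaling, 9 of the 12 were called, 2 higher and 7 lower, so the number of small falls depended on the scaling, and without IL-10-negative replicate 3 the number was 3, with the Psmb10 call lost as well (adjusted p = 0.0587). The constitutive proteasome subunits Psmb5, Psmb6 and Psmb7, which the immunoproteasome subunits replace, did not pass either, with log2 fold changes from -0.05 to 0.02.

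Non-classical class I genes, which resemble the classical heavy chains but vary less and often serve other receptors, mostly moved down with them. Of 23 listed, 12 were tested, 7 fell and 0 rose, with a median log2 fold change of -0.16. Over all tested genes 18.6% fell and 17.1% rose. Among the Q genes, H2-Q4, H2-Q6 and H2-Q7 had log2 fold changes close to that of H2-K1, whereas H2-Q10 did not pass (-0.06, interval -0.35 to 0.24). H2-Q7 had 249 ± 4.08 CPM in IL-10-producing, against 303 ± 2.86 CPM in IL-10-negative libraries (log2 fold change -0.29), H2-Q4 had 189 ± 2.99 CPM in IL-10-producing against 231 ± 1.19 CPM in IL-10-negative libraries (-0.29) and H2-Q6 had 134 ± 4.37 CPM in IL-10-producing against 163 ± 2.72 CPM in IL-10-negative libraries (-0.28). H2-T23, whose product Qa-1 is a ligand of NKG2A, fell to 158 ± 2.26 CPM in IL-10-producing, against 174 ± 5.42 CPM in IL-10-negative libraries. H2-T22 (-0.11) and H2-T10 (-0.23) fell as well. Hfe, an iron-regulating relative, fell at a very low level, 0.271 ± 0.0891 CPM in IL-10-producing against 0.841 ± 0.113 CPM in IL-10-negative libraries. H2-M3, Mr1 and Cd1d1, which present to unconventional T cells, did not pass. Their log2 fold changes were 0.00 for H2-M3 (interval -0.11 to 0.11), -0.04 for Mr1 (-0.19 to 0.11) and 0.00 for Cd1d1 (-0.27 to 0.28). Genes of the Q and T families share long stretches of sequence, so reads may have been divided among them.

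The 5 class II genes were all lower in IL-10-producing ILC2s, with larger log2 fold changes than the class I chains. Against a background of 18.6% of genes called lower, 5 of 5 fell, with a median log2 fold change of -0.72, where the median of all genes tested was -0.00384. In all 5 every IL-10-producing library lay below every IL-10-negative library, which was so for 23.5% of all genes. The summed level of the 5 was 14.8 to 16.2 CPM in IL-10-producing, against 25.9 to 27.1 CPM in IL-10-negative libraries (exact permutation p = 0.1, the smallest possible).

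Cd74 (ENSMUSG00000024610.14, chromosome 18, 60803848 to 60812646), the invariant chain that guides class II to endosomes, was the most abundant of them. It had 7.45, 8.03 and 6.72 CPM in IL-10-producing libraries, against 13.8, 13.5 and 13 CPM in IL-10-negative libraries. These levels rested on 314 to 550 counts per IL-10-producing and 717 to 791 per IL-10-negative library. The gap was many times the spread of either group, and the log2 fold change was -0.85 (interval -1.01 to -0.70, adjusted p = 1.16e-09). H2-Aa (ENSMUSG00000036594.14, chromosome 17, 34282744 to 34287827, minus strand), the alpha chain of the A molecule, had 0.892, 1.11 and 1.24 CPM in IL-10-producing libraries, against 2.72, 2.68 and 2.86 CPM in IL-10-negative libraries. It was 2.55-fold lower in IL-10-producing cells (log2 fold change -1.35, interval -1.71 to -0.99, adjusted p = 6.26e-07), the largest fall among the 10 genes. The counts behind it were 48 to 76 per IL-10-producing and 141 to 161 per IL-10-negative library.

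H2-Ab1 (ENSMUSG00000073421.5, chromosome 17, 34263209 to 34269418), the beta chain that pairs with the H2-Aa product, had 3.81, 4.14 and 3.68 CPM in IL-10-producing libraries, against 4.79, 5.41 and 5.56 CPM in IL-10-negative libraries. The groups were separate but closer than for H2-Aa, with a log2 fold change of -0.43 (interval -0.65 to -0.21, adjusted p = 0.00214). H2-Eb1 (ENSMUSG00000060586.10, chromosome 17, 34305877 to 34316199) encodes the beta chain of the E molecule, whose alpha chain gene H2-Ea is defective in C57BL/6 mice. It had 2.27, 1.52 and 1.73 CPM in IL-10-producing libraries, against 2.80, 2.87 and 2.45 CPM in IL-10-negative libraries. IL-10-producing replicate 1 came close to the lowest IL-10-negative value, and the log2 fold change was -0.56 (interval -0.90 to -0.22, adjusted p = 0.00878). Without IL-10-producing replicate 2 the H2-Eb1 call was lost (log2 fold change -0.43, adjusted p = 0.072). In a test against a change of 1.2-fold, H2-Aa, Cd74 and Ciita remained past the threshold, and H2-Ab1 and H2-Eb1 did not (adjusted p = 0.174 and 0.127). H2-Eb1 overlaps Gm20513 and Ciita overlaps Dexi, each on the opposite strand, and their reads cannot be told apart without strand.

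The alpha and beta chain genes of the A molecule were also compared within libraries. Per kilobase of transcript, H2-Aa over H2-Ab1 was 0.252, 0.288 and 0.362 in IL-10-producing libraries, against 0.611, 0.532 and 0.553 in IL-10-negative libraries. The ratio was lower in all 3 IL-10-producing libraries (log2 difference -0.93, exact permutation p = 0.1, the smallest possible). Cd74 over H2-Ab1 was likewise lower, at 1.64 ± 0.0605 in IL-10-producing and 2.21 ± 0.248 in IL-10-negative libraries (log2 difference -0.43, p = 0.1 by the exact permutation test). H2-Eb1 over H2-Ab1 overlapped between the groups, at 0.347 ± 0.0832 in IL-10-producing and 0.377 ± 0.0527 in IL-10-negative libraries (exact permutation p = 0.7).

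**Figure D2:**
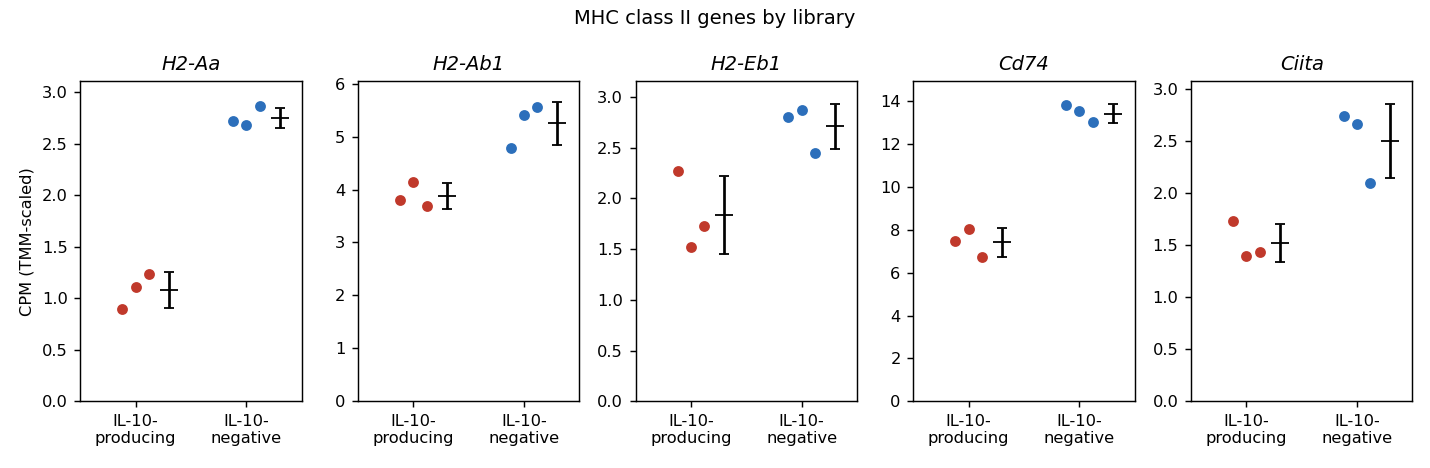
Levels of the class II genes in CPM (TMM-scaled, axis from 0) in the IL-10-producing and IL-10-negative libraries, with a point per library and the mean ± SD of 3 libraries in black. Every IL-10-producing library lies below every IL-10-negative library for all 5 genes, with the widest gap relative to level for H2-Aa and the narrowest distance for H2-Eb1.

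Among the class II genes, the windows of H2-Aa, chr17:34287774-34288073 (minus strand), and H2-Eb1, chr17:34305617-34305916 (plus strand), are shown with the same capitals for comparison with those of class I.
H2-Aa: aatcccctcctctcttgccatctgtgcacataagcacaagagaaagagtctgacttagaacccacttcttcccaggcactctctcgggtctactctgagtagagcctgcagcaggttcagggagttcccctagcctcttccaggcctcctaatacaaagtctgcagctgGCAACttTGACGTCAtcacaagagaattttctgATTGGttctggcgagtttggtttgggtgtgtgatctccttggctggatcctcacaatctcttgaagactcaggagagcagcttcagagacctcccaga
H2-Eb1: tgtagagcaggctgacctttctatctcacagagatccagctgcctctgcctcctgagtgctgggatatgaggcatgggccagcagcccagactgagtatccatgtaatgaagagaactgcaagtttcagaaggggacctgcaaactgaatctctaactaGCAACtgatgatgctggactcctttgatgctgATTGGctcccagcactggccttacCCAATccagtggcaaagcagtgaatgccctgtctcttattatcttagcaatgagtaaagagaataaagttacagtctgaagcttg
In H2-Aa all 3 motifs were found in a row on the sense strand. The start of ATTGG lay 33 bases after that of GCAAC and 26 bases after that of TGACG. The TGACG of H2-Aa also overlaps its own match on the opposite strand, so that 8 capitals form a palindrome. In H2-Eb1 the distance from GCAAC to ATTGG was 32 bases, and no TGACG was found. Of the 13 windows found for class II accessory and loading genes, 3 had such a pair. They were those of H2-Oa (33 bases), H2-Ob (30 bases) and H2-Eb2 (32 bases). H2-Oa and H2-Ob both fell, and H2-Eb2 was not analysed here. Among 14 windows of non-classical class I genes the pair was found in H2-Q7 (24 bases), which fell, and in H2-M3 (25 bases), which did not pass. Windows without the pair included those of H2-Q4, H2-Q6, H2-T22, H2-T23 and Hfe, which fell, and of H2-Q10 and Mr1, which did not pass. Among accessory and loading genes without it, H2-DMb2, Ctss and Ctsl fell, Lgmn, Ifi30 and Sppl2a rose, and H2-DMa and H2-DMb1 did not pass. A single RefSeq window was read per gene. That of H2-DMa, at 34122582 to 34122881, does not cover the start of the tested gene at 34135182. Whether the pair goes with a fall was not tested.

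Ciita (ENSMUSG00000022504.10, chromosome 16, 10480059 to 10528418), without which class II genes are hardly transcribed, had 1.73, 1.40 and 1.43 CPM in IL-10-producing libraries, against 2.74, 2.66 and 2.10 CPM in IL-10-negative libraries. Both groups were low and did not overlap, and the log2 fold change was -0.72 (interval -1.07 to -0.37, adjusted p = 0.00147). CIITA does not bind DNA itself but docks on a complex of RFX, NF-Y and CREB factors at the X and Y boxes. Of the 7 genes of that complex, 1 rose, 2 fell and 4 did not pass. With so few genes these counts are near the 17.1% of all tested genes that rose and the 18.6% that fell. Rfx5, the largest RFX subunit, had 25.2 ± 0.799 CPM in IL-10-producing, against 35.9 ± 0.646 CPM in IL-10-negative libraries (log2 fold change -0.51, adjusted p = 6.29e-10). Rfxank fell slightly, to 20.3 ± 1.27 CPM in IL-10-producing against 22.3 ± 0.327 CPM in IL-10-negative libraries (-0.14), and Nfyb rose, to 65.5 ± 1.94 CPM in IL-10-producing against 58.3 ± 1.08 CPM in IL-10-negative libraries (0.17). The Rfxank call was lost without IL-10-producing replicate 2 (adjusted p = 0.296), IL-10-negative replicate 1 (0.076), replicate 2 (0.115) or replicate 3 (0.0627), and with DESeq2 (0.0818). For Rfxap, Nfya, Nfyc and Creb1 the log2 fold changes lay between -0.03 and 0.06.

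Class II accessory and loading genes went both ways. Of 14 listed, 11 were tested, 3 rose, 5 fell and 3 did not pass, where 17.1% of all tested genes rose and 18.6% fell. Genes encoding chains of the peptide-editing molecules were lower or did not pass. H2-Oa, whose product joins that of H2-Ob to restrain peptide editing, fell to 8.93 ± 0.209 CPM in IL-10-producing, against 10.4 ± 0.410 CPM in IL-10-negative libraries. H2-Ob fell to 0.668 ± 0.137 CPM in IL-10-producing against 1.35 ± 0.139 CPM in IL-10-negative libraries (log2 fold change -1.03). H2-DMb2 fell to 0.0964 ± 0.0665 CPM in IL-10-producing against 0.470 ± 0.0565 CPM in IL-10-negative libraries (-2.35). H2-DMb2 had 3 to 8 counts per IL-10-producing and 24 to 27 per IL-10-negative library. It passed the filter only through the IL-10-negative group, so its fall carries no weight. Under a filter of at least 50 counts in 3 libraries, 4 genes of the list fell. H2-DMa and H2-DMb1, which make the editor H2-DM, did not pass, with 7.67 ± 0.106 CPM in IL-10-producing against 8.69 ± 0.168 CPM in IL-10-negative libraries and 2.12 ± 0.111 CPM in IL-10-producing against 2.12 ± 0.162 CPM in IL-10-negative libraries. The endosomal proteases differed in direction. Ctss (cathepsin S, which trims the invariant chain) and Ctsl (cathepsin L) fell by 0.12 and 0.23 as log2 fold changes. For Ctss the call was lost without IL-10-producing replicate 1 (adjusted p = 0.0785) or replicate 2 (0.0664) or IL-10-negative replicate 1 (0.143). That of H2-Oa was lost without IL-10-producing replicate 2 (0.0811) or replicate 3 (0.0514) or IL-10-negative replicate 2 (0.098), so that 3 of the list fell without IL-10-producing replicate 2. Lgmn, an asparaginyl endopeptidase, rose to 108 ± 3.40 CPM in IL-10-producing, against 87.7 ± 2.40 CPM in IL-10-negative libraries. Ifi30, a thiol reductase that opens disulfide bonds of antigens, rose to 84.6 ± 1.21 CPM in IL-10-producing against 70.1 ± 0.818 CPM in IL-10-negative libraries, and Sppl2a, a protease that clears the last fragment of the invariant chain, to 137 ± 0.966 CPM in IL-10-producing against 124 ± 3.89 CPM in IL-10-negative libraries.

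**Figure D3:**
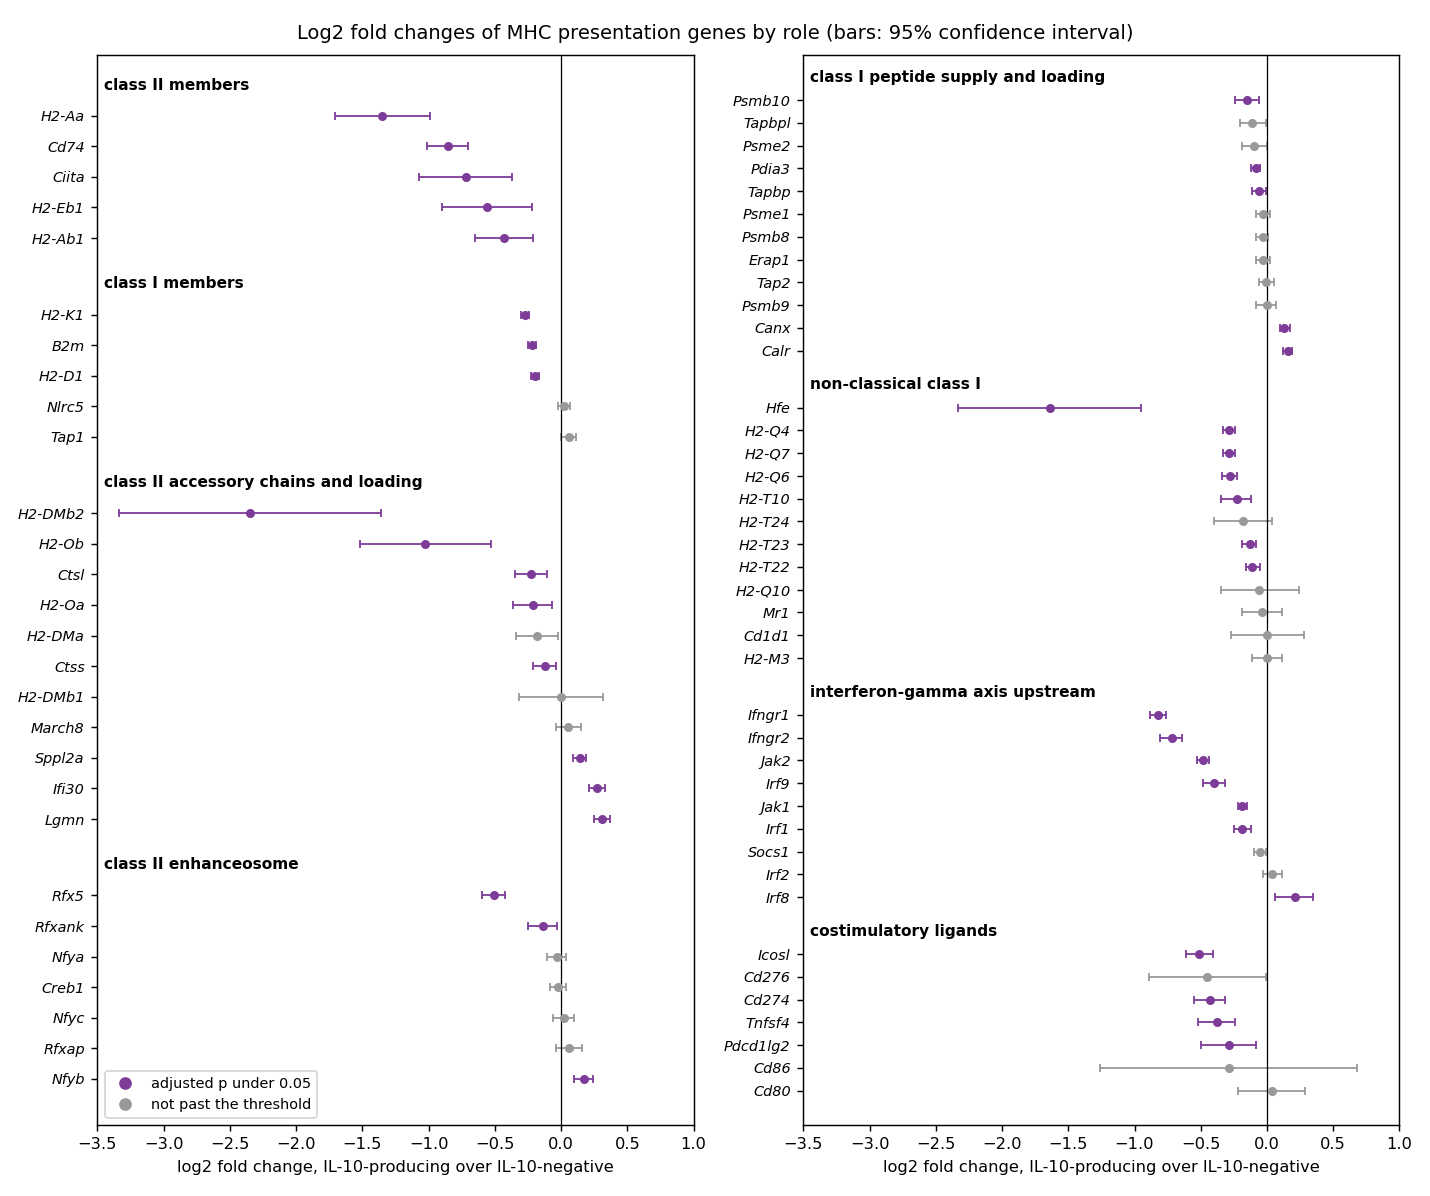
Log2 fold changes, IL-10-producing over IL-10-negative, of the class II and class I genes and of most tested genes in 6 lists, with bars for the 95% confidence interval. Purple points passed an adjusted p of 0.05 and grey points did not. H2-DMb2 stands farthest to the left at -2.35, with only 3 to 8 counts per IL-10-producing library, and Lgmn farthest to the right at 0.31.

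Interferon-gamma is the classical inducer of both MHC classes, through its receptor, the kinases JAK1 and JAK2 and the factor IRF1. Of 10 genes of this axis 7 fell, 1 rose and 2 did not pass, with a median log2 fold change of -0.19. Over all tested genes 18.6% fell and 17.1% rose. The receptor chain Ifngr1 had 54.5 ± 1.73 CPM in IL-10-producing, against 96.3 ± 0.363 CPM in IL-10-negative libraries, and Ifngr2 had 29.8 ± 1.36 CPM in IL-10-producing against 49.2 ± 1.38 CPM in IL-10-negative libraries, with log2 fold changes of -0.82 and -0.72. Jak2 fell by 0.48, Irf9 by 0.40 and Jak1 and Irf1 by 0.19 each on that scale. Irf8 rose, at 12.9 ± 0.749 CPM in IL-10-producing, against 11.2 ± 0.558 CPM in IL-10-negative libraries. The Irf8 call was lost without IL-10-producing replicate 2 (adjusted p = 0.137), IL-10-negative replicate 2 (0.0835) or IL-10-negative replicate 3 (0.0628). Irf2 and Socs1, a feedback inhibitor of JAK signalling, did not pass (0.04 and -0.05). Socs1 passed as lower without IL-10-producing replicate 1 (adjusted p = 0.047) or replicate 3 (0.0304).

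A T cell that recognises peptide on MHC also reads stimulatory and inhibitory ligands on the presenting cell. Of 8 listed, 7 were tested, 4 fell and 0 rose, where 18.6% of all tested genes fell and 17.1% rose. Icosl, the ligand of ICOS, had 20.3 ± 0.706 CPM in IL-10-producing, against 28.9 ± 0.894 CPM in IL-10-negative libraries. Tnfsf4, which encodes OX40L, had 11.3 ± 0.659 CPM in IL-10-producing against 14.7 ± 0.930 CPM in IL-10-negative libraries. Cd274, which encodes the inhibitory PD-1 ligand PD-L1, had 13.5 ± 0.0979 CPM in IL-10-producing against 18.3 ± 0.396 CPM in IL-10-negative libraries. Pdcd1lg2, which encodes the other inhibitory PD-1 ligand, PD-L2, had 4.02 ± 0.132 CPM in IL-10-producing against 4.92 ± 0.0948 CPM in IL-10-negative libraries. The Pdcd1lg2 call was lost in 5 of 6 fits with 1 library left out, all but the one without IL-10-negative replicate 3 (adjusted p = 0.0538 to 0.0858), and with DESeq2 (0.0666). The classical B7 genes were low and did not pass, Cd80 at 3.76 ± 0.102 CPM in IL-10-producing against 3.66 ± 0.514 CPM in IL-10-negative libraries and Cd86 at 0.25 ± 0.16 CPM in IL-10-producing against 0.29 ± 0.105 CPM in IL-10-negative libraries. Cd276 did not pass (-0.45, adjusted p = 0.105), but did without IL-10-producing replicate 1 (-0.71, adjusted p = 0.0167) or IL-10-negative replicate 1 (-0.60, adjusted p = 0.0366). Cd40 was below the filter, with 1 to 4 counts in IL-10-producing and 6 to 7 in IL-10-negative libraries.

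Compared per kilobase of transcript, the 10 genes differed widely in level. RPKM below is the TMM-scaled CPM divided by the transcript length in kilobases. B2m was highest, at 1865 ± 24.2 RPKM in IL-10-producing and 2169 ± 6.21 RPKM in IL-10-negative libraries, and ranked 11 in IL-10-producing and 8 in IL-10-negative libraries among the tested genes with a length. H2-D1 (943 ± 7.44 RPKM in IL-10-producing, 1082 ± 9.98 RPKM in IL-10-negative libraries) and H2-K1 (837 ± 8.46 RPKM in IL-10-producing, 1009 ± 6.68 RPKM in IL-10-negative libraries) followed. Tap1 stood at 84.8 ± 3.79 RPKM in IL-10-producing and 81.6 ± 1.82 RPKM in IL-10-negative libraries, and Nlrc5 at 31.6 ± 0.759 RPKM in IL-10-producing and 31.1 ± 0.504 RPKM in IL-10-negative libraries. Cd74 led class II with 5.25 ± 0.466 RPKM in IL-10-producing and 9.53 ± 0.319 RPKM in IL-10-negative libraries, ahead of H2-Ab1 with 3.20 ± 0.198 RPKM in IL-10-producing and 4.33 ± 0.338 RPKM in IL-10-negative libraries. In IL-10-producing libraries H2-Eb1 (1.10 ± 0.231 RPKM) and H2-Aa (0.958 ± 0.156 RPKM) came next and did not differ beyond their spread, whereas in IL-10-negative libraries H2-Aa (2.44 ± 0.0839 RPKM) stood above H2-Eb1 (1.62 ± 0.133 RPKM). Ciita was lowest in both, at 0.253 ± 0.0301 RPKM in IL-10-producing and 0.416 ± 0.0586 RPKM in IL-10-negative libraries. Every other pair of neighbours in either order was separated by more than the sum of the SDs.

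Markers of the cells that typically carry class II were detected at very different levels, and many moved in the same libraries. In the B-cell list of 12 genes 8 were tested, 5 fell and 2 rose, where 18.6% of all tested genes fell and 17.1% rose. The list summed to 48.7 to 50.4 CPM in IL-10-producing, against 40.0 to 41.0 CPM in IL-10-negative libraries. Most of this sum was Ighm (26.4 ± 0.564 CPM in IL-10-producing against 20.2 ± 0.866 CPM in IL-10-negative libraries), Cd79b (15.5 ± 0.741 CPM in IL-10-producing against 14.5 ± 0.522 CPM in IL-10-negative libraries) and Igkc (6.38 ± 0.587 CPM in IL-10-producing against 2.01 ± 0.120 CPM in IL-10-negative libraries). The defining markers Ms4a1, Cd22, Cd79a and Pax5, named here after their values were seen, fell and were near or below 1 CPM in both groups, Ms4a1 with 0.0896 ± 0.0164 CPM in IL-10-producing against 0.525 ± 0.212 CPM in IL-10-negative libraries. Ms4a1 had 4 to 6 counts per IL-10-producing library and passed the filter only through the IL-10-negative group, so its fall carries no weight. Ebf1 and Ighd were below the filter, with 0 counts in IL-10-producing replicate 3. Cr2, also below it and named after its values were seen, had 9 to 20 counts in IL-10-producing and 5 to 10 counts in IL-10-negative libraries.

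In the dendritic-cell list of 12 genes 8 were tested, 4 fell and 0 rose, where 18.6% of all tested genes fell and 17.1% rose. The list summed to 144 to 148 CPM in IL-10-producing, against 150.4 to 154 CPM in IL-10-negative libraries. Ccr7 (65.8 ± 1.31 CPM in IL-10-producing against 64.0 ± 0.807 CPM in IL-10-negative libraries), Xcr1 (56.6 ± 1.12 CPM in IL-10-producing against 60.4 ± 0.801 CPM in IL-10-negative libraries) and Ly75 (22.3 ± 0.271 CPM in IL-10-producing against 24.3 ± 0.632 CPM in IL-10-negative libraries) made up nearly all of it. Siglech had 0 counts in all 3 IL-10-producing libraries and 2 to 9 in the IL-10-negative libraries, Cd209a had 0 to 2 in IL-10-producing and 0 to 4 in IL-10-negative libraries, and Clec10a had 0 to 2 in IL-10-producing and 8 to 9 in IL-10-negative libraries. Besides Xcr1 and Ly75, the genes that fell were Batf3 and Fscn1 (log2 fold changes -1.39 and -1.10), named here after their values were seen. Batf3 had only 3 to 20 counts per IL-10-producing library and passed the filter only through the IL-10-negative group. In the list of 14 macrophage and monocyte genes 7 were tested, 4 fell and 2 rose, beside the same 18.6% and 17.1% of all tested genes. Their sums were 12.7 to 12.9 CPM in IL-10-producing, against 13.5 to 15.4 CPM in IL-10-negative libraries. Chil3 (6.61 ± 0.495 CPM in IL-10-producing against 5.34 ± 0.262 CPM in IL-10-negative libraries) and Cd68 (4.85 ± 0.576 CPM in IL-10-producing against 3.87 ± 0.294 CPM in IL-10-negative libraries) rose, and Ly6c2 fell to 0.112 ± 0.115 CPM in IL-10-producing against 2.22 ± 0.135 CPM in IL-10-negative libraries. Csf1r, Mrc1 and Adgre1, named here after their values were seen, fell as well (log2 fold changes -2.03, -2.24 and -1.71). They had 3 to 18 counts per IL-10-producing library and passed the filter only through the IL-10-negative group. So did Ly6c2, with 1 to 13 counts per IL-10-producing library. Mertk had 0 counts in IL-10-producing replicate 1 and IL-10-negative replicate 2. The part of these cell types in the class II values was not tested.

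**Figure D4:**
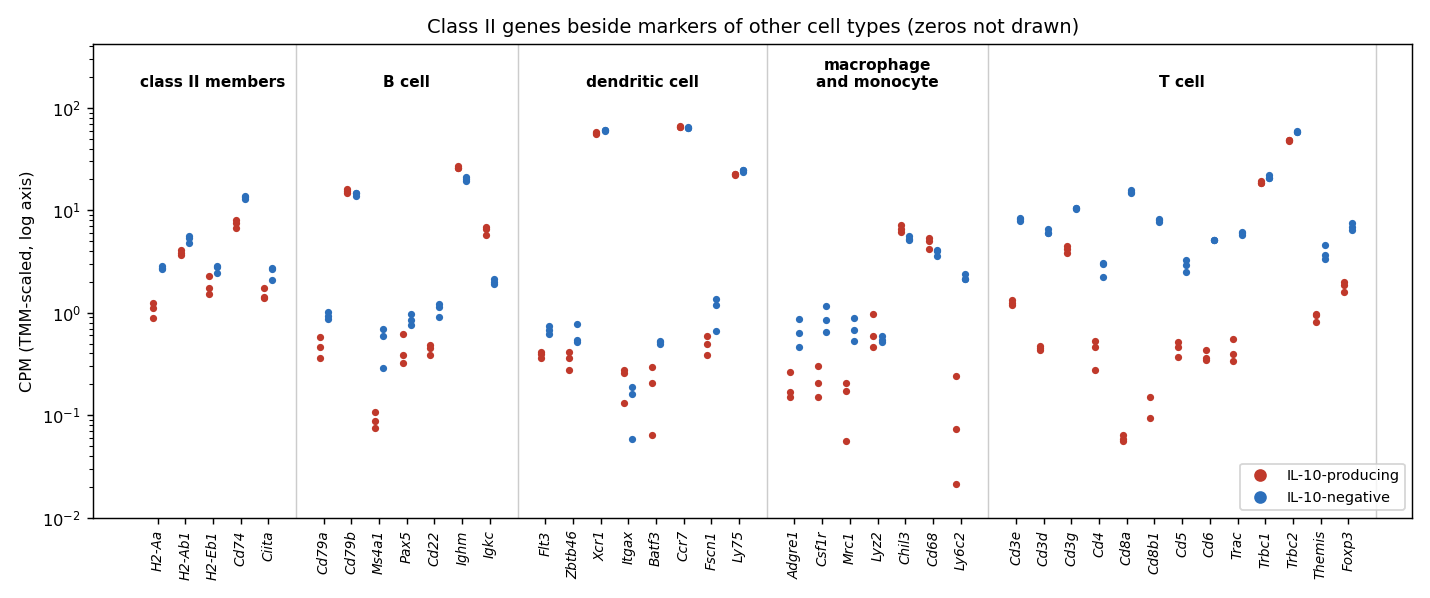
Levels of the class II genes and of most tested markers of B cells, dendritic cells, macrophages and monocytes, and T cells, in CPM on a log axis, with a point per library and IL-10-producing left of IL-10-negative for each gene. Values of 0 are not drawn. Cd22 and Cd79a lie lower in IL-10-producing libraries, as do the class II genes, while Ighm, Igkc and Chil3 lie higher. Ms4a1 and Ly6c2 also lie lower but passed the filter only through the IL-10-negative group.

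Of the 10 genes, 6 lie in the MHC region of chromosome 17. Between H2-K1 and H2-M3, a span of 3.28 Mb, 22 protein-coding genes of the MHC lists were tested, of which 13 fell and 0 rose, with a median log2 fold change of -0.19. H2-DMb2, whose fall carries no weight, is among the 13. H2-T10, which fell (-0.23), also lies in the span but is annotated in the count table as a polymorphic pseudogene and is not among the 22. Of the 81 other protein-coding genes tested in the span 26 fell and 5 rose, with a median of -0.10. The share that fell was 32.1% for these neighbours, against 18.6% of all genes. The neighbours that fell include the cytokine genes Ltb, Lta and Tnf (-1.75, -1.54 and -0.74), named here after their values were seen. The change was not uniform along the region. Psmb9, Tap1, Psmb8 and Tap2, which lie between 186 and 207.5 kb from the start of H2-K1, did not pass, whereas H2-Ob, H2-Ab1, H2-Aa and H2-Eb1, which follow at 242.9 to 309.9 kb, all fell.

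**Figure D5:**
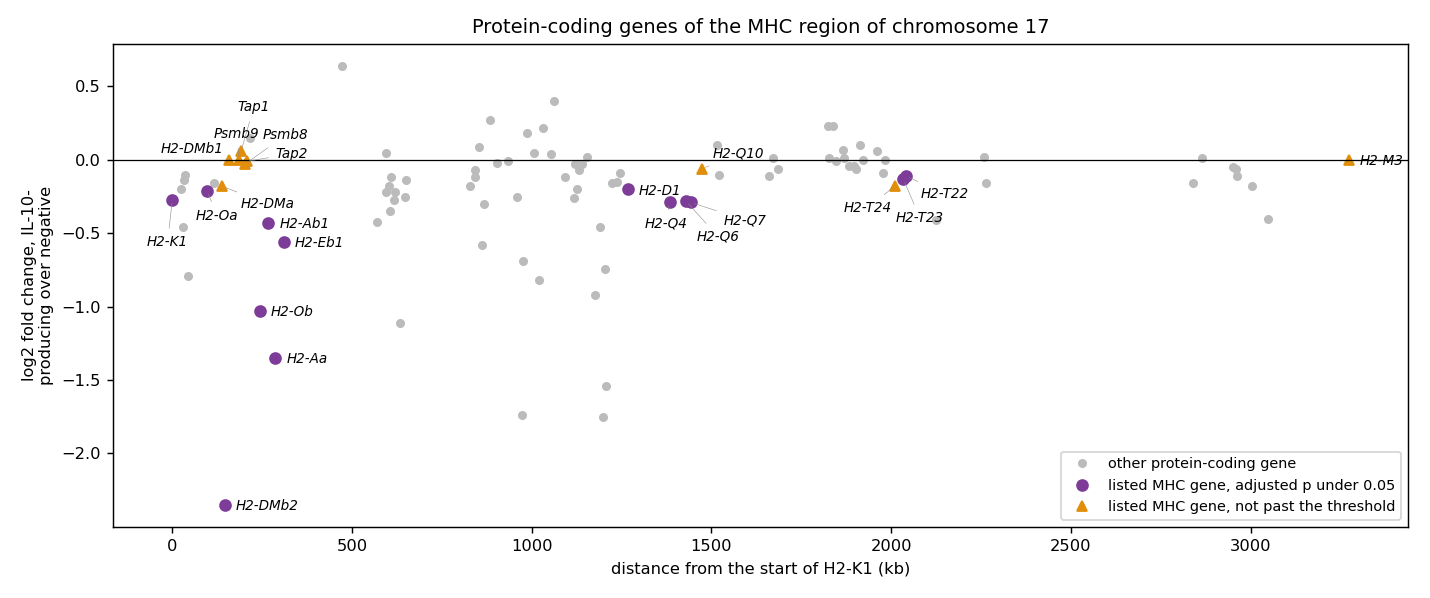
Log2 fold changes, IL-10-producing over IL-10-negative, of tested protein-coding genes against their distance in kb from the start of H2-K1. Purple circles are listed MHC genes that passed the test, orange triangles listed MHC genes that did not, and grey circles other genes. The transporter and immunoproteasome genes lie near 0, beside H2-Ob and H2-Aa at -1.03 and -1.35. H2-DMb2, at -2.35, passed the filter only through the IL-10-negative group.

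Genes of most similar pattern were sought among tested genes outside all lists with at least 5 CPM, by the root mean square difference (RMSD) of log2 levels over the 6 libraries after each gene's mean was removed. For the mean profile of H2-Aa, H2-Ab1, H2-Eb1 and Cd74 the 5 nearest were Sqstm1 (RMSD 0.0132), Bcl2 (0.0182), Tnfaip3 (0.0280), Dennd5a (0.0298) and Prnp (0.0308). Sqstm1, for example, stood at 219 ± 4.52 CPM in IL-10-producing, against 377 ± 4.33 CPM in IL-10-negative libraries. For the mean profile of H2-K1, H2-D1 and B2m the 5 nearest were Aff1 (0.00949), Frmd4b (0.0113), Blcap (0.0116), Cish (0.0118) and Bcl11b (0.0121). These distances mostly reflect the size of the group difference and are given as a description.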

How the data were processed

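The authors deposited a table of unnormalized estimated counts, in which 43.6% of values were not whole (tolerance 0.01), and a second table of normalized signal values for 13824 genes. The submitters' processing notes name build mm10 and, among the tools, Partek, STAR 2.5.3a and bcl2fastq 2.17.1.14. Annotation and strand setting are not given in the sources used here. Versioned identifiers of 19917 among 21017 genes matched GENCODE M21, at equal positions once 1 was subtracted from the listed stop.

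Counts were rounded and fitted with edgeR 4.0.16 (R 4.3.3), with TMM factors, filterByExpr (minimum count 10, minimum total 15) and the group as the only term. RPKM uses the length of the principal transcript in GENCODE M21. Totals of 47012941 to 69511433 counts set the precision, and intervals cover the spread between libraries. Sums and ratios were compared by two-sided exact permutation tests. The 10 genes and the lists were chosen with earlier results of these data known. All 10 genes and any tested gene of the pathway lists could be named, with the 3 highest of each marker list and those at 0. The text marks other genes chosen after their values were seen. Between libraries of the same replicate number, correlations of deviations from the group means were -0.0479, -0.0234 and -0.0296. No pairing was seen, but such correlations cannot show that these libraries had separate sources. Alternatives were DESeq2 1.42.0 and its size factors, library size only, other filters, limma-voom (limma 3.58.1), limma on log2 of the authors' signal plus 1, the replicate number as a block, a test against 1.2-fold, and leaving out each library. A gene each of the B-cell and interferon-gamma lists is counted with its list and not reported here by itself.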

Additional observations from a re-analysis of the deposited data

How the results depend on the processing

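Each of the 10 genes was refitted under 15 alternatives. H2-Aa, Cd74 and Ciita stayed lower and past the threshold in all 15 (highest adjusted p 1.2e-05, 1.42e-07 and 0.0234). With library size only, the log2 fold change of Nlrc5 turned to -0.01, the class I median became -0.23, 9 genes of class I loading and 1 constitutive proteasome gene were called, and the folds of summed levels were 0.851 for class I, 1.2 for B-cell, 0.945 for dendritic-cell and 0.489 for T-cell lists. On the authors' normalized values plus 1, which compresses low genes, the class II median was -0.42. Against a change of 1.2-fold, 1317 genes were called instead of 5943, and 3 of the 10 genes. There H2-Ab1 (-0.43), H2-Eb1 (-0.56), H2-K1 (-0.27), H2-D1 (-0.20) and B2m (-0.22) lost the call. The list counts fell to 2 for class II accessory genes, 1 for the RFX, NF-Y and CREB complex, 0 for class I loading, 1 for non-classical class I, 4 for the interferon-gamma axis and 2 for costimulatory ligands. With 1 library left out, the log2 fold change ran from -0.74 to -0.43 for H2-Eb1 and from 0.03 to 0.09 for Tap1, and class I loading had 3 to 5 calls. With the replicate number as a block, 8 of the 10 genes and 5817 of all genes were called, and no library number showed pairing. Whether other causes lie behind these shifts was not tested. Counts of 48 to 168 per library limit the precision of H2-Aa, H2-Eb1 and Ciita.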
